A study of Mus musculus with 2 samples.

Results

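The 7 genes described here encode the core of MHC class II antigen presentation in the mouse: the class II chains H2-Aa, H2-Ab1 and H2-Eb1, the invariant chain Cd74, the transactivator Ciita and both chains of H2-DM, H2-DMa and H2-DMb1. They were chosen by name, and all 7 were found among the 69691 rows of the deposited gene tables, 21474 of which are protein-coding genes. The tables come from total RNA of granulocyte-monocyte progenitors (GMP), the committed precursors of neutrophils and monocytes, taken as primary cells from adult male C57BL/6J mice aged 5 to 6 weeks, with no treatment or genetic change named. The isolation protocol that the labels point to is for bone marrow progenitors, and its gates were not used here. The only group has 2 libraries, each from a pool of 100 cells, called replicate 1 and replicate 2. The labels number them as biological replicates under a single donor identifier and do not say that they came from separate animals. Each SD below is the spread of these 2 libraries, part of which may be technical, and no test between conditions was possible. Replicate 1 held 40509954 expected counts (reads estimated per gene) and replicate 2 held 35675702.

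Class II molecules are pairs of an alpha and a beta chain that show peptides from the endosome to CD4 T cells. They are assembled in the endoplasmic reticulum on the invariant chain, which blocks the groove and guides them to endosomes. There cathepsins cut the invariant chain down to a short peptide, and H2-DM, a class II-like pair that stays inside the cell, removes that peptide and helps the groove to select others. CIITA binds no DNA itself. It is recruited by RFX, NF-Y and CREB proteins that sit on the X and Y boxes ahead of class II genes, and it sets where these genes are switched on. Dendritic cells, B cells and macrophages are the classic sources of class II, and C57BL/6 mice make the I-A pair but not the I-E pair, because their I-E alpha gene is defective.

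The start-site sequences of the class II and DM genes are shown because the X and Y boxes are where the factors that recruit CIITA bind, and these members differed widely in level. RefSeq (GRCm38.p6) gave a promoter for 4 of the 7 members, and the 250 bases before the start are printed 5′ to 3′ on the gene's own strand, with motif matches in capitals. The motifs searched on both strands were the Y box core ATTGG, the X box core AACNGATG and the cyclic AMP response element TGACGTCA, known as the X2 box, and they were chosen with the sequences in view. None of these motifs overlapped another in the sequences shown.
H2-DMa (chr17:34122582-34122831, plus strand): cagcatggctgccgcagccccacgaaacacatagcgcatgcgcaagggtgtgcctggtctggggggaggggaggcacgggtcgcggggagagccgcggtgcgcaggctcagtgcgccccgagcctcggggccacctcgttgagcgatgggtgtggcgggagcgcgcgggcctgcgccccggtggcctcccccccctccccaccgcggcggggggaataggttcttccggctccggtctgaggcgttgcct
H2-DMb1 (chr17:34152941-34153190, plus strand): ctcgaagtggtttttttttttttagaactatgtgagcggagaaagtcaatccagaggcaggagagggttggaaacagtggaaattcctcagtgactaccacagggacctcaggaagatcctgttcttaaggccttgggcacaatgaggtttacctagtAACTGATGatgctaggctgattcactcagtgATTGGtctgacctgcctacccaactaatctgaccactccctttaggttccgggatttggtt
H2-Aa (chr17:34287824-34288073, minus strand): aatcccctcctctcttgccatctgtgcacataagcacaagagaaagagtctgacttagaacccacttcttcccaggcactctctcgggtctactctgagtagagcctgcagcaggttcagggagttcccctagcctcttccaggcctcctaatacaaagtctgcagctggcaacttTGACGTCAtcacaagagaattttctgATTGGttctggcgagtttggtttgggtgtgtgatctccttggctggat
H2-Eb1 (chr17:34305617-34305866, plus strand): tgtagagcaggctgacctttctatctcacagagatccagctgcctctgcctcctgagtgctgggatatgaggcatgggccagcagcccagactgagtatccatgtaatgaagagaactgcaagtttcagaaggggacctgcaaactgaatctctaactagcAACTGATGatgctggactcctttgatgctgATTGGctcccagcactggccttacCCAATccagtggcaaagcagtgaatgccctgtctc

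H2-DMb1 and H2-Eb1 each held an X box core, beginning 92 and 89 bases before the start, followed by a Y box core at 61 and 59 bases. H2-Eb1 had a further Y box core on the opposite strand at 35 bases. H2-Aa held the X2 box at 74 bases and a Y box core at 48 bases, and no match to the X box core. The H2-DMa window held no match to any of the 3 and was 74.0% G and C, against a median of 52.4% over 32536 distinct promoter windows of this length. The annotated start of Brd2, on the opposite strand at base 34122634, lies inside this window, so its sequence does not belong to H2-DMa alone. A second RefSeq start of H2-DMa, 2686 bases downstream, had a lone Y box core at 198 bases. Of all windows, 33.8% held the Y box core, 1.99% the X box core, 1.56% the X2 box and 0.692% both the Y and the X box cores. The starts of H2-DMa and H2-Aa coincided with that of their longest quantified coding transcript. The RefSeq start of H2-DMb1 lay 119 bases after its transcript start, so both its boxes fall after that transcript start. The RefSeq start of H2-Eb1 lay 150 bases before its transcript start. A match is a run of letters and not a measured binding site.

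**Figure D1:**
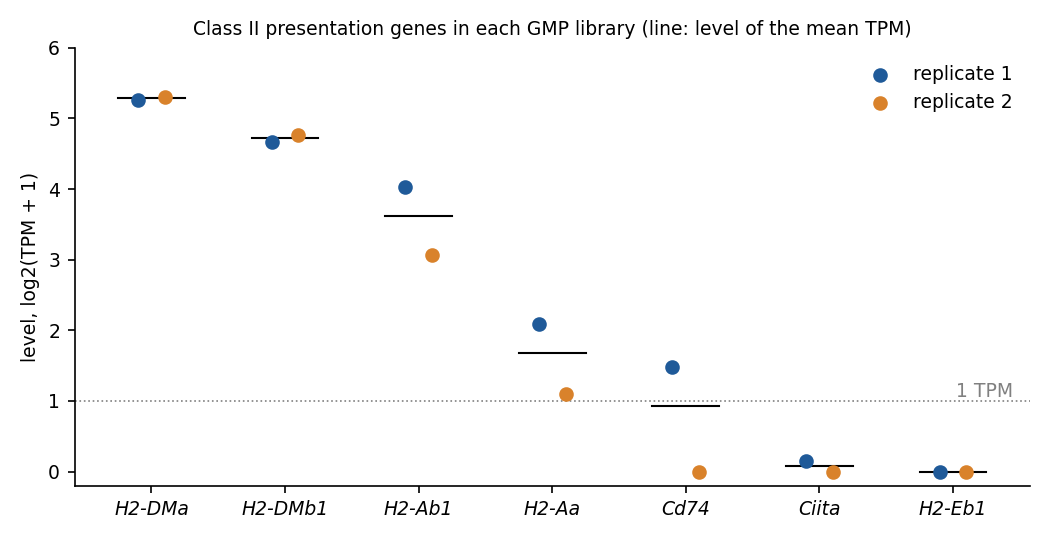
Level of each of the 7 class II presentation genes in each GMP library, as log2(TPM + 1), with points for the 2 libraries and a line at the level of the mean TPM. H2-DMa and H2-DMb1 lie highest with their points together, H2-Ab1 and H2-Aa are lower and split by library, Cd74 and Ciita have counts in replicate 1 alone, and H2-Eb1 is at 0.

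The class II pathway was expressed in part. TPM values (transcript abundance corrected for length and depth, so that genes can be compared) fell in the order H2-DMa, H2-DMb1, H2-Ab1, H2-Aa, Cd74, Ciita and H2-Eb1. Of the 7 genes, 4 reached 1 TPM in both libraries, where 45.6% of all protein-coding genes did. The median of the mean TPM over the 7 was 2.21, beside 0.550 over all protein-coding genes. It was 3.89 beside 0.953 after TPM was rescaled without spike-ins, Gm42418, Gm26917, Lars2, mitochondrial ribosomal RNA and rows with numeric identifiers, and 1.14 beside 0.510 without replicate 1. H2-DMa and H2-DMb1 together carried 75.1% of the TPM of the 7 genes in replicate 1 and 88.4% in replicate 2. In bulk RNA, fewer cells with a transcript and less transcript per cell cannot be told apart.

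H2-DMa, the alpha chain of the peptide editor, had a replicate 1 level of 37.35 TPM and a replicate 2 level of 38.6 TPM, from 1174 and 1330 counts. Its mean of 38.0 ± 0.877 TPM (SD, n = 2) ranked 1974 among 21474 protein-coding genes, above 90.8% of them. H2-DMb1, its beta-chain partner, stood at 24.3 and 26.3 TPM from 610 and 703 counts, a mean of 25.3 ± 1.41 TPM that lay above 85.9% of protein-coding genes. Each DM chain was thus at nearly the same TPM in both libraries, and the ratio of alpha to beta chain was 1.54 in replicate 1 and 1.47 in replicate 2. In CPM, the counts scaled to library size with no division by length, both chains were higher in replicate 2, with 29.0 against 37.3 CPM for H2-DMa and 15.1 against 19.7 CPM for H2-DMb1. For genes of their abundance, edgeR's trended coefficient of variation between the libraries was 0.171 for H2-DMa and 0.240 for H2-DMb1. The difference between the 2 DM chains, present in both libraries, was larger than the spread of each between libraries, though with n = 2 it was not tested.

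H2-DMb1 has a close copy, H2-DMb2, beside it in the genome. H2-DMb2 was at 1.55 and 1.85 TPM from 60.2 and 57.6 counts, so H2-DMb1 was 15.7-fold and 14.2-fold higher. Few reads were in doubt between the copies: the posterior SD of the count, the authors' measure of how uncertain the assignment of reads is, was 2.56 and 2.16 reads for each copy in replicates 1 and 2. It was 0 for H2-DMa, H2-Aa, H2-Ab1, Cd74 and Ciita. The annotated exons of the quantified H2-DMa transcripts share 0 bases with those of any other gene, Brd2 on the opposite strand included. The same held for the quantified transcripts of H2-DMb1, H2-Ab1, H2-Aa and H2-Eb1. Annotated transcripts of these members that were not quantified were left out.

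Across the 2 libraries the protein-coding genes nearest to H2-DMa in log2(TPM + 1) were Rnf187 at 37.55 and 38.2 TPM, Psmd3, a proteasome subunit, at 37.0 and 39.1 TPM, and Arpc5l, an actin-nucleating complex subunit, at 37.8 and 39.1 TPM. Their distances were 0.0175, 0.0237 and 0.0240 log2 units, and with 2 libraries they say only that the levels were alike.

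H2-Ab1, the I-A beta chain, had a replicate 1 level of 15.3 TPM and a replicate 2 level of 7.41 TPM, from 315 and 168 counts, with a mean of 11.3 ± 5.55 TPM. H2-Aa, the I-A alpha chain that must pair with it, was at 3.27 and 1.14 TPM from 64 and 29 counts, with a mean of 2.21 ± 1.51 TPM. The beta chain thus exceeded the alpha chain 4.67-fold in replicate 1 and 6.5-fold in replicate 2. Both chains were higher in replicate 1, and in CPM the excess was 1.65-fold for H2-Ab1 and 1.94-fold for H2-Aa. The exact 95% binomial intervals of the CPM did not overlap between libraries for either chain. They were 6.94 to 8.68 against 4.02 to 5.48 for H2-Ab1 and 1.22 to 2.02 against 0.544 to 1.17 for H2-Aa. The DM chains, higher in replicate 2, did not overlap either. H2-DMa had 27.3 to 30.7 against 35.3 to 39.3, and H2-DMb1 13.9 to 16.3 against 18.3 to 21.2. The same held for Cd74 and Ciita, higher in replicate 1. Lack of overlap was thus no particular trait of the I-A chains. The share of all genes without overlap was not computed, so lack of overlap cannot be read as a trait of the members either. The labels name no molecular identifiers, so these intervals cover counting error alone, and the trended coefficient of variation between libraries was 0.367 at the abundance of H2-Ab1 and 1.08 at that of H2-Aa.

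H2-Eb1, the I-E beta chain, had 0 counts in both libraries, as did 42.5% of protein-coding genes. A count of 0 allows up to 3 counts, which is 0.0741 CPM in replicate 1 and 0.0841 CPM in replicate 2. Its X and Y box cores lie at nearly the same distance from the RefSeq start as those of H2-DMb1, printed above. The coding transcripts of the 2 genes begin on opposite sides of their RefSeq starts, so the likeness does not hold from the transcript starts. Any link between the boxes and the level was not tested.

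Cd74, the invariant chain, had 56 counts in replicate 1 (1.80 TPM) and 0 in replicate 2. In CPM, its replicate 1 level was 16.4-fold above the limit of 3 counts in replicate 2. Ciita, the transactivator, had 17 counts in replicate 1 (0.110 TPM) and 0 in replicate 2, at least 4.99-fold higher in replicate 1 by the same limit. Both genes were thus detected in 1 library alone and at a low level there. The trended coefficient of variation between libraries was 1.34 at the abundance of Cd74 and 1.74 at that of Ciita, the widest of the 6 genes with counts.

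Between the libraries the 7 genes fell into separate patterns. H2-Aa, H2-Ab1, Cd74 and Ciita were higher in replicate 1, H2-DMa and H2-DMb1 were slightly higher in replicate 2, and H2-Eb1 was at 0. On log2(TPM + 1), only Cd74 was over 2-fold apart (-1.49, replicate 2 over replicate 1), and 4.34% of all protein-coding genes were. H2-Aa at -0.997 and H2-Ab1 at -0.95 lay just inside that limit. Among genes of 1 to 10 TPM on average, the range that holds H2-Aa, 13.9% were over 2-fold apart, and of those at 10 TPM or more, the range of H2-Ab1 and the DM genes, 3.13% were. The value for H2-DMa was 0.05 and for H2-DMb1 0.11, beside a median of 0.04 over the 10278 protein-coding genes of 1 TPM or more. The median over the 7 genes was -0.15, with H2-Eb1 entered as 0, and over all protein-coding genes it was 0. With pseudocount 0.1 in place of 1, 4 of the 7 were over 2-fold apart, as were 11.0% of all protein-coding genes.

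**Figure D2:**
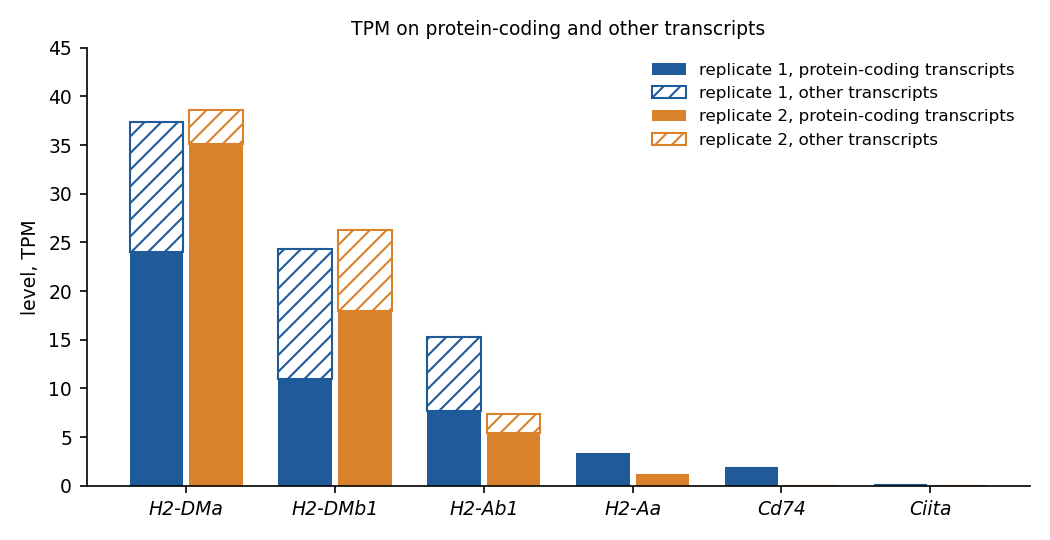
TPM of the 6 class II presentation genes with counts in each library, split into protein-coding transcripts (filled) and transcripts of other annotated types (hatched). The hatched part of H2-DMa, H2-DMb1 and H2-Ab1 is larger in replicate 1 than in replicate 2.

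The transcript tables showed that a large part of this TPM lay on short transcripts that are not annotated as coding. For H2-Ab1, the coding transcript H2-Ab1-201 held 50.0% of the TPM in replicate 1 and 72.9% in replicate 2, and the rest lay on H2-Ab1-203, a retained-intron transcript of 515 bases. For H2-DMa, the coding H2-DMa-201 held 64.2% and 90.9%, and the retained-intron transcript H2-DMa-202 held 35.8% and 9.13%. For H2-DMb1, the coding H2-DMb1-201 held 45.3% and 68.3%, and the non-coding H2-DMb1-203 of 692 bases held 54.7% and 31.7%. Each of these genes thus had the smaller coding share in replicate 1.

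A short transcript receives more TPM per read, so shares by counts were less even. H2-Ab1-201 held 74.8% and 88.8% of the counts of its gene in replicates 1 and 2, H2-DMa-201 83.6% and 96.6%, and H2-DMb1-201 66.0% and 83.4%. The posterior SD was 10.8 and 5.57 reads for H2-Ab1-201, 21.3 and 11.9 for H2-DMa-201, and 13.6 and 16.6 for H2-DMb1-201, so the split by transcript was less certain than the gene totals, while each of these 3 coding transcripts had at least 149 counts in either library. Among the 4 members at 1 TPM or more that have such transcripts, H2-Ab1 and H2-DMb1 had at least 25% of their TPM outside coding transcripts in both libraries. Transcripts with no match in the M21 annotation count in the total alone. Of 6134 protein-coding genes at that level with such transcripts, 31.3% did. The share was larger in replicate 1 for H2-Ab1, H2-DMa and H2-DMb1 and not for H2-Aa, while it was larger in replicate 1 for 41.0% of the 6134 genes.

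Counting coding transcripts alone changed how the libraries compared. H2-Ab1 stood at 7.63 and 5.40 coding TPM, a 1.41-fold excess in replicate 1 in place of 2.06-fold for the whole gene. H2-DMa stood at 24.0 and 35.1 coding TPM, 1.46-fold higher in replicate 2, and H2-DMb1 at 11.0 and 17.95 coding TPM, 1.63-fold higher in replicate 2. The order of the genes stayed the same on this scale in both libraries, with H2-DMa 3.14-fold and 6.49-fold above H2-Ab1. H2-DMa was 2.18-fold and 1.95-fold above H2-DMb1, and H2-Ab1 was 2.33-fold and 4.78-fold above H2-Aa.

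The remaining members gave little on transcript use. All 64 counts of H2-Aa in replicate 1 went to the coding transcript H2-Aa-204, and 28.9 of 29 in replicate 2 to the coding H2-Aa-201. With a posterior SD of 10.2 reads on either transcript in replicate 1, this change of transcript rests on few reads. All counts of Cd74 and of Ciita went to Cd74-201 and Ciita-201, and the single H2-Eb1 transcript had none.

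On GENCODE M21 coordinates (GRCm38), H2-DMa (ENSMUSG00000037649.9) spans chromosome 17 from 34119541 to 34139101 and H2-DMb1 (ENSMUSG00000079547.3) from 34153072 to 34160230. H2-Ab1 (ENSMUSG00000073421.5) spans 34257689 to 34269419, H2-Aa (ENSMUSG00000036594.10) 34282744 to 34287823 and H2-Eb1 (ENSMUSG00000060586.10) 34305867 to 34316674 on the same chromosome. Cd74 (ENSMUSG00000024610.10) lies on chromosome 18 from 60803848 to 60812652, and Ciita (ENSMUSG00000022504.9) on chromosome 16 from 10480059 to 10528418.

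**Figure D3:**
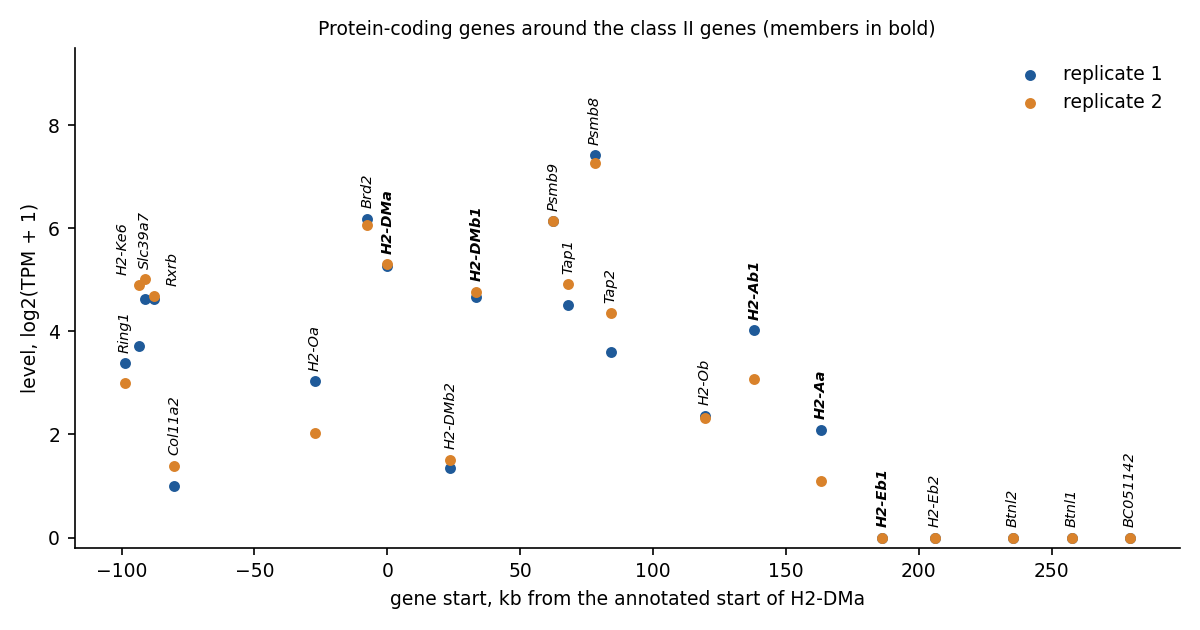
Level of protein-coding genes around the class II genes of chromosome 17, as log2(TPM + 1) in each library against the distance of the gene start from that of H2-DMa in kilobases. Psmb8 is highest, H2-DMa and H2-DMb1 lie above H2-Ob, H2-Ab1 and H2-Aa, and all 5 genes from H2-Eb1 on are at 0.

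The 5 chromosome 17 members share their region with class I processing genes and with silent genes. From 100 kb before H2-DMa to 100 kb after H2-Eb1 lie 22 protein-coding genes, and 17 of them reached 1 TPM in both libraries. Of all protein-coding genes, 45.6% did. The other 5, H2-Eb1, H2-Eb2, Btnl2, Btnl1 and BC051142, had 0 counts in both and lie side by side at the H2-Eb1 end. H2-DMa and H2-DMb1, with the low H2-DMb2 between them, lie between genes of higher level that are not class II chains: Brd2, a bromodomain protein, at 71.8 and 66.2 TPM, and the immunoproteasome subunits Psmb9 at 69.6 and 69.4 TPM and Psmb8 at 171 and 152 TPM. Tap1 and Tap2, the peptide transporter of the class I pathway, were at 21.8 and 29.2 TPM and at 11.1 and 19.35 TPM. Beyond Tap2, H2-Ob, H2-Ab1 and H2-Aa had at most 15.3 TPM in either library.

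On the other flank, ahead of H2-DMa, the levels were mixed. Ring1, a Polycomb protein, was at 9.47 and 6.97 TPM, H2-Ke6 at 12.1 and 28.7 TPM, the zinc transporter Slc39a7 at 23.65 and 31.2 TPM, the nuclear receptor Rxrb at 23.7 and 24.7 TPM and the collagen chain Col11a2 at 1.01 and 1.63 TPM. Gm20427 overlaps H2-Ke6 and Slc39a7 on the same strand. The posterior SD was 8.18 and 7.21 reads on 269.64 and 499 counts of H2-Ke6, and 47.65 and 49.2 reads on 1354 and 1672 counts of Slc39a7.

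Of the other class II genes, 3 of 5 reached 1 TPM in both libraries. The share of 45.6% over all protein-coding genes stands beside this count and those of the lists below, which were chosen by hand. H2-Oa and H2-Ob encode H2-DO, the inhibitor of DM. H2-Oa was at 7.16 and 3.07 TPM from 195 and 75 counts, and H2-Ob at 4.15 and 4.01 TPM from 306 and 225 counts. Both DO chains were thus below both DM chains in each library. An antisense gene, BC051537, spans H2-Oa and was at 0.650 and 0.350 TPM. The posterior SD was 0 for both genes in each library, so no reads were in doubt between their annotated transcripts. The strand setting is not stated, so antisense reads outside annotated exons are not excluded. H2-Eb2, and H2-Ea, the I-E alpha gene that is annotated as a pseudogene in this strain, had 0 counts in both libraries.

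**Figure D4:**
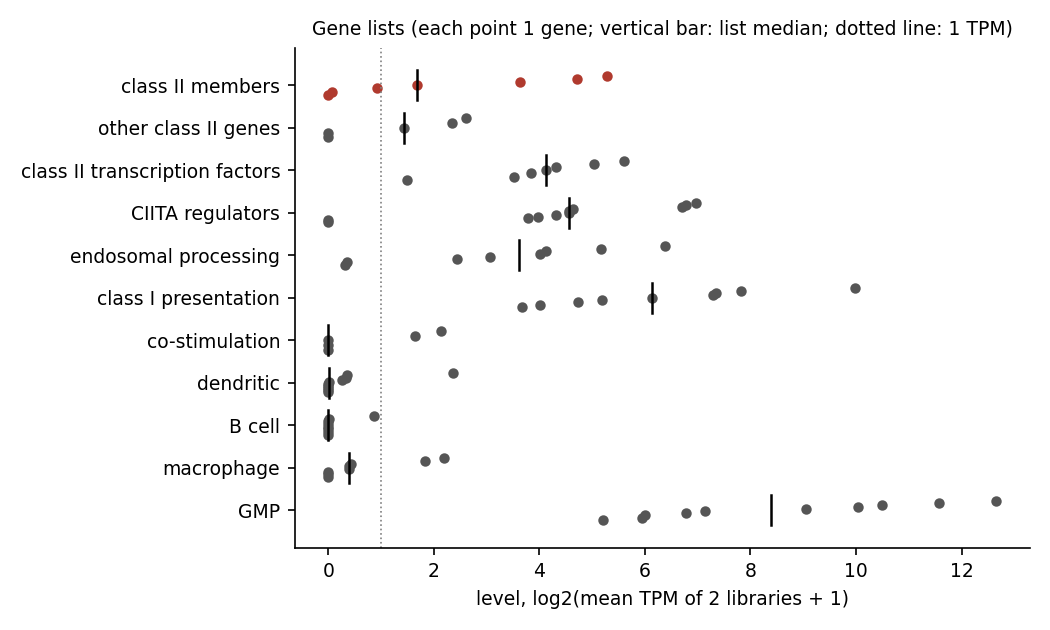
Mean TPM of 2 libraries, as log2(mean TPM + 1), for each gene of the class II members and of 10 further lists, with a bar at each list median and a dotted line at 1 TPM. The medians of class II transcription factors, CIITA regulators and class I genes lie to the right of the median of the class II members, and those of dendritic, B cell and macrophage genes to the left.

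The listed genes for proteins that bind class II promoters were all detected as RNA. Of 7 such genes, 7 reached 1 TPM in both libraries, where 45.6% of all protein-coding genes did, with a median of 16.5 TPM. The NF-Y subunits Nfya, Nfyb and Nfyc were at 46.2 and 48.5 TPM, at 19.9 and 13.1 TPM and at 11.9 and 25.7 TPM in replicates 1 and 2. Of the RFX subunits, Rfx5 was at 9.01 and 12.1 TPM, Rfxap at 21.7 and 4.82 TPM and Rfxank at 1.30 and 2.34 TPM, and Creb1 was at 34.9 and 29.0 TPM. On coding transcripts alone Rfxap was at 2.52 and 2.26 TPM, since 88.4% and 53.2% of its TPM lay on other transcripts. Ciita, the partner that these factors recruit, was lower than each of them, with 17 counts in replicate 1 and 0 in replicate 2. Its part in the levels of the class II genes was not tested.

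Among 11 genes known to act on Ciita, 9 reached 1 TPM in both libraries. The interferon gamma receptor chains Ifngr1 and Ifngr2 were at 123 and 126 TPM and at 14.4 and 15.2 TPM, and their kinases Jak1 and Jak2 at 22.3 and 22.8 TPM and at 12.1 and 13.4 TPM. Downstream of them, Irf1 was at 19.9 and 18.03 TPM and Irf2 at 20.9 and 24.4 TPM. The myeloid regulators Spi1 (PU.1) and Irf8 were at 99.9 and 118 TPM and at 102 and 103 TPM. The last 2, Irf4, a regulator in lymphoid and dendritic cells, and Prdm1 (Blimp-1), a repressor of Ciita, had 0 counts in both libraries.

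Of 8 endosomal processing genes, 6 reached 1 TPM in both libraries, with a median of 11.25 TPM. The cathepsins Ctsd and Ctsb were highest, at 71.8 and 92.5 TPM and at 33.6 and 36.5 TPM. Ctss, the cathepsin that cuts the invariant chain in dendritic and B cells, was at 12.45 and 20.3 TPM, and Ifi30, the gene of the endosomal thiol reductase, at 20.7 and 9.65 TPM. All TPM of Ifi30 lay on transcripts that are not annotated as coding, so this is no measure of the coding transcript. The others included Lgmn, asparaginyl endopeptidase, at 0.220 and 0.270 TPM, and March1, the ubiquitin ligase that removes class II from the surface, at 0.0300 and 0.530 TPM.

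Of 9 class I presentation genes, 9 reached 1 TPM in both libraries, with a median of 69.5 TPM against 2.21 TPM for the class II members. The ranges overlapped, since Nlrc5, Tap2, Tap1 and Tapbp lay below H2-DMa on average. B2m, the light chain of class I, was at 1084 and 941 TPM, H2-K1 at 201 and 248 TPM and H2-D1 at 132 and 178 TPM, and Psmb8, given above, completed the 4 highest. H2-K1 was 13.2-fold and 33.5-fold above H2-Ab1. Nlrc5, the transactivator of class I genes and a relative of Ciita, was at 13.0 and 10.4 TPM (11.7 and 4.10 on coding transcripts), where Ciita was at 0.110 and 0 TPM. With n = 2 no test of these differences was run, and H2-K1 and H2-D1 belong to a family of similar sequences.

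Among markers of the classic antigen-presenting cells, 5 of 10 dendritic, 6 of 8 B cell and 3 of 8 macrophage genes had 0 counts. Of all protein-coding genes, 42.5% had 0 counts in both libraries. Flt3, Adgre1 and Vcam1 lay above H2-Aa in mean TPM, and the GMP markers were high. Of 10 GMP genes, such as Mpo, Elane, Prtn3 and Ctsg, 10 reached 1 TPM in both libraries, and their summed level was 12418 and 13514 TPM. Of 10 dendritic cell genes, 1 did, Flt3, which progenitors also carry, at 2.31 and 5.95 TPM, and the list summed to 3.06 and 6.69 TPM. Batf3, Clec9a, Siglech, Ccr7 and Cd86 had 0 counts in both libraries. Next by level were Cd209a at 0 and 0.550 TPM, Zbtb46 with 28 counts and 1 count and Itgax with 29 and 15 counts. Of the 5 dendritic cell genes with counts, 2 were higher in replicate 1 and 3 in replicate 2.

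Of 8 B cell genes 0 reached 1 TPM in both libraries, and the list summed to 0.940 and 0.710 TPM. Ighd at 0.930 and 0.710 TPM gave nearly all of it, and Cd79a, Ms4a1, Pax5, Cd22, Cr2 and Ebf1 had 0 counts in both libraries. Of 8 macrophage genes 2 did, Adgre1 (F4/80) at 4.06 and 3.11 TPM and Vcam1 at 2.00 and 3.08 TPM, and the list summed to 6.61 and 7.54 TPM. Cd163 followed at 0.550 and 0.130 TPM, and the complement gene C1qa at 0 and 0.610 TPM, while C1qc, Mertk and Marco had 0 counts in both libraries. The part of rare cells of these types in the counts of H2-Ab1, H2-Aa, Cd74 and Ciita was not tested.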

How the data were processed

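Total RNA-seq of 2 libraries of 1 group was used. The authors deposited, for each library, tables of expected counts (estimated reads), TPM and FPKM by gene and by transcript, and the percent of the TPM of a gene that each transcript holds. They were made on mm10 with annotation M4 per the deposited text notes, which also list transcriptome alignments. The sources used here do not name the aligner, the quantification tool or the strand setting. TPM sums over all rows, with spike-ins and ribosomal RNA. Symbols, transcript types and coordinates came from GENCODE M21 by identifier without version, and 42462 rows matched.

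Log2 ratios between libraries are of TPM + 1 unless another pseudocount or scaling is named, and the counts of genes over 2-fold apart rest on them. Folds and ratios given without log2 are of TPM, coding TPM or CPM, with no pseudocount. Intervals are exact binomial (Clopper-Pearson) at 95%. With 1 group, no gene was tested. The coefficient of variation was fitted in R 4.3.3 by edgeR 4.0.16, with whole-number rounding of the expected counts, TMM factors, an intercept alone and the 13930 genes of at least 10 counts in either library. DESeq2 1.42.0 size factors were an alternative. The other software was matplotlib 3.10.9, pandas 2.3.3, scipy 1.17.1, numpy 2.4.6 and Python 3.11.15, and the steps were tested on simulated data. The members, lists and alternatives were chosen with earlier results of these data known. Named genes are the members, all other class II, promoter-binding and Ciita-regulating genes, the 4 highest of each further list with markers at 0 counts, the protein-coding genes of the region and the 3 nearest in level to the highest member. Nlrc5, Lgmn, March1, Gm20427 and BC051537 fall outside that rule and were named after their values were seen. Some genes that the rule names are not reported here.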

Additional observations from a re-analysis of the deposited data

How the results depend on the processing

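Of the 7 genes, the number at 1 TPM or more in both libraries was 4 at a threshold of 0.5 TPM, 3 at 5 TPM and 3 with FPKM, and between 4 and 5 with either library alone. The median of the mean TPM was 3.89 after TPM was rescaled without spike-ins, Gm42418, Gm26917, Lars2, mitochondrial ribosomal RNA and entries with numeric identifiers, and 1.14 to 3.27 with 1 library. The number of genes over 2-fold apart was 4 with pseudocount 0.1, 0 among genes of 1 TPM or more and 2 with coding transcripts alone, the last chosen after seeing the data. The median log2 ratio was -1.03 with pseudocount 0.1, -0.52 with TMM factors, -0.52 with DESeq2 size factors and -0.45 among genes of 1 TPM or more, and its sign did not change in any of these. The scalings by counts are not divided by length, and they moved the median ratio of 10278 protein-coding genes from 0.04 to 0.00. The leading transcript's mean share was 81.8% by counts for H2-Ab1, in place of 61.5%, and 74.7% for H2-DMb1, in place of 56.8%. The share of H2-Ab1 in the TPM of the 7 genes was 14.3%, and 10.1% to 18.6% with 1 library. At 5 TPM the counts of other class II, co-stimulatory, dendritic and macrophage genes were 0 each, and 1 B cell gene, Ighd, passed at 0.5 TPM or with rescaled TPM. No paired analysis was possible because there was 1 group. Depth limits Cd74, Ciita and H2-Aa, which rest on 64 counts or fewer in each library, and H2-Eb1, known only to lie under 3 counts.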

Other observations

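Co-stimulatory genes encode the second signal that antigen-presenting cells give to T cells. Of the 5 listed, Cd80, Cd86 and Cd40 had 0 counts in both libraries, as did 42.5% of all protein-coding genes. The others reached 1 TPM in both libraries. Cd274, the inhibitory ligand PD-L1, had 2.36 TPM in replicate 1 against 4.45 TPM in replicate 2, and Icosl had 1.91 against 2.36 TPM.

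Among neighbours of the class II genes, Tap2 had the largest share of TPM outside coding transcripts of the 17 expressed protein-coding genes in each library, 63.9% in replicate 1 and 87.3% in replicate 2, against a median of 18.03% and 19.7% over 6134 protein-coding genes with such transcripts. Its coding transcripts stood at 4.0 and 2.46 TPM, so whole-gene and coding levels moved in opposite directions between the libraries. The share of Psmb8 was 4.59% and 3.79%.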
